A study of Mus musculus with 15 samples.

Results

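The crypt base stem cell markers examined here are 10 genes, Lgr5, Olfm4, Ascl2, Smoc2, Lgr4, Tnfrsf19, Cdca7, Msi1, Prom1 and Rgmb, taken by symbol from the 78298 genes counted in every library. Each symbol occurred once, and all 10 were among the 17560 genes that passed the filter on low counts. The samples were 15 poly-A RNA-seq libraries of organoids, grown in culture from mouse small intestine, in 5 conditions of 3 libraries, with 28062722 to 40559766 reads counted on genes per library. The comparisons ask how the transcriptome of organoids that carry a tagged SOX9 transgene differs from that of control organoids, and how it differs between a budding and a spheroid shape.

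All organoids were primary cultures grown from small intestinal crypts of adult female mice of C57BL/6J background, and all carried at least 1 stable lentiviral transgene under L30, a weak promoter active in all cell types. Halo-NLS organoids, the control, carried the HaloTag with a nuclear localization signal (L30prom_V5-Halo-GDGAGLIN-NLS_IRES_Puro). SOX9-Halo organoids carried SOX9 fused to the HaloTag (L30prom_Sox9-GDGAGLIN-Halo-V5_IRES_Puro), and SOX9-mEGFP organoids carried SOX9 fused to a green fluorescent protein (L30prom_Sox9-GDGAGLIN-mEGFP-V5_IRES_Puro). Both SOX9 lines were sampled as budding organoids (SOX9-Halo_budding, SOX9-mEGFP_budding) and, at later passages, as spheroids (SOX9-Halo_spheroid, SOX9-mEGFP_spheroid). Spheroids carried a further histone H2B transgene, tagged with mEGFP in the SOX9-Halo line (L30prom_H2B-GDGAGLIN-mEGFP-V5_IRES_Zeo) and with mScarletI in the SOX9-mEGFP line (L30prom_H2B-GDGAGLIN-mScarletI-V5_IRES_Neo). Shape, passage and the H2B transgene therefore cannot be told apart. Each condition was 1 stable line, so that the libraries of a condition share their line. The study used organoids of wild-type and of LGR5::DTR-EGFP reporter mice. Its text does not state which of these gave the Halo-NLS organoids sequenced here. Any effect of the reporter on Lgr5 counts was not tested.

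Crypt base columnar cells are the cycling stem cells of the intestine, wedged between Paneth cells at the crypt bottom. They are kept by Wnt signals, which R-spondins amplify by binding receptors of the LGR family and so removing ubiquitin ligases that clear Wnt receptors from the cell surface. SOX9 is a Wnt-regulated transcription factor of the crypt base. The 10 genes were defined as markers in normal crypts, and some of them are also expressed outside stem cells.

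Libraries were first checked against their labels. Sox9 stood at 15.3, 22.9 and 9.10 CPM in Halo-NLS (CPM is a gene's read count scaled to a common, TMM-adjusted library size), and in the 12 libraries with a SOX9 transgene it ran from 39.8 to 705 CPM. The 39.8 CPM belonged to SOX9-Halo_budding replicate 1, which lay above all 3 controls, while the other 11 ran from 193 to 705 CPM. Reads of the transgene and of the endogenous Sox9 gene were counted together. Xist, the RNA that coats an inactive X chromosome, held 1182 to 14811 counts in the 6 libraries of the SOX9-Halo line and 0 to 8 in the other 9, while the Y-linked genes Ddx3y, Kdm5d, Eif2s3y and Uty held at most 1 count in any library. The SOX9-Halo line thus differed from the control and the SOX9-mEGFP line in more than its tag. Summed over 6 genes per list, mesenchymal markers reached at most 2.92 CPM and immune markers at most 8.15 CPM in any library. The 6 enterocyte markers summed to 1259 to 9746 CPM in the 9 control and budding libraries, to 204 to 506.9 CPM in SOX9-mEGFP_spheroid and to 1.86 to 5.69 CPM in SOX9-Halo_spheroid, where they were near 0.

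Of the markers that lay apart in spheroids, 3 are shown here by the 250 bases before their annotated start, read from the GRCm39 genome with GENCODE M39 start sites. Olfm4 is given because its 6 spheroid libraries lay below all others, which also held for Smoc2, whose window is not printed. Prom1 and Tnfrsf19 are given because they were called higher in both spheroid lines. They lie at chr14:80237441-80237690 on the plus strand, chr5:44259297-44259546 on the minus strand and chr14:61284208-61284457 on the minus strand. Capitals mark the core letters CTTTGA, which TCF/LEF factors recognise, and ACAAT, which SOX factors recognise, on either strand.
Olfm4: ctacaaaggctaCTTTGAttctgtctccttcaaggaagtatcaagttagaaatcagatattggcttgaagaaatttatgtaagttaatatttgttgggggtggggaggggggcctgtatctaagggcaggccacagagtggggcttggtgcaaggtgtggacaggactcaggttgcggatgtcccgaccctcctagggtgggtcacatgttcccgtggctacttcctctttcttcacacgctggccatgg
Prom1: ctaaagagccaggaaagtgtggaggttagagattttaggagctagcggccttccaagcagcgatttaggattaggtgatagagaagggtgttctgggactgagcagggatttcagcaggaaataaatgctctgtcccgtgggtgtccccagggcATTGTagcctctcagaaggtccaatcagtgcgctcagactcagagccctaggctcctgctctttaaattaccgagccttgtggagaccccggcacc
Tnfrsf19: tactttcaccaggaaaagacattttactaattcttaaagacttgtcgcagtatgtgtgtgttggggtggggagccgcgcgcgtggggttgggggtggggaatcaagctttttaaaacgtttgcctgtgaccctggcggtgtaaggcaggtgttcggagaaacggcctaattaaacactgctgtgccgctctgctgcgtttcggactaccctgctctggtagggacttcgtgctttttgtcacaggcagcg

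In these windows Olfm4 holds CTTTGA 238 bases before its start and Prom1 holds ACAAT, on the opposite strand, 96 bases before its start. Tnfrsf19 holds neither, and nor does the unprinted window of Smoc2. Of all 10 markers, 1 has CTTTGA (Olfm4), 3 have ACAAT (Ascl2, Cdca7 and Prom1) and 1 has GGAATG, the core of TEAD factors (Lgr4, 25 bases before its start). Over 21770 gene promoters of the same length, 14.1%, 27.0% and 12.1% hold these letters, so the markers' counts are near those of all genes. The genes have between 2 and 20 annotated start sites each, of which only 1 is shown, and the letters say nothing about binding.

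Against Halo-NLS, markers were called in both directions in the spheroids and only as higher in the budding organoids, as the plot of CPM by library shows gene by gene. To be called, a gene needed an adjusted p no higher than 0.01, a 2-fold or larger difference and 10 or more normalized reads on average, with edgeR's quasi-likelihood test and Benjamini-Hochberg adjustment, as for every adjusted p given here. In SOX9-mEGFP_budding 2 markers were called, Lgr4 and Prom1, both higher, where 2.76% of all tested genes were called (1.99% higher and 0.763% lower). In SOX9-Halo_budding 1 was called, Lgr4, also higher, where 3.75% of genes were called (2.49% higher and 1.26% lower). DESeq2 called 5 markers in the latter, adding Lgr5, Msi1 and Rgmb as higher and Ascl2 as lower, and over all genes it called 1176 higher and 426 lower there (9.42%), against 438 and 221 with edgeR. In SOX9-mEGFP_spheroid 6 were called, with Lgr5, Lgr4, Tnfrsf19 and Prom1 higher and Smoc2 and Cdca7 lower, against 27.5% of genes (15.3% higher and 12.1% lower). In SOX9-Halo_spheroid 5 were called, with Tnfrsf19 and Prom1 higher and Olfm4, Smoc2 and Msi1 lower, against 28.9% of genes (13.6% higher and 15.3% lower). The median log2 fold change of the 10 markers was 1.42, 0.63, 0.34 and -0.68 in these 4 comparisons, while that of all tested genes lay between -0.01 and 0.03. The 4 comparisons share the Halo-NLS libraries. In bulk RNA, fewer cells of a type and less RNA per cell cannot be told apart.

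**Figure D1:**
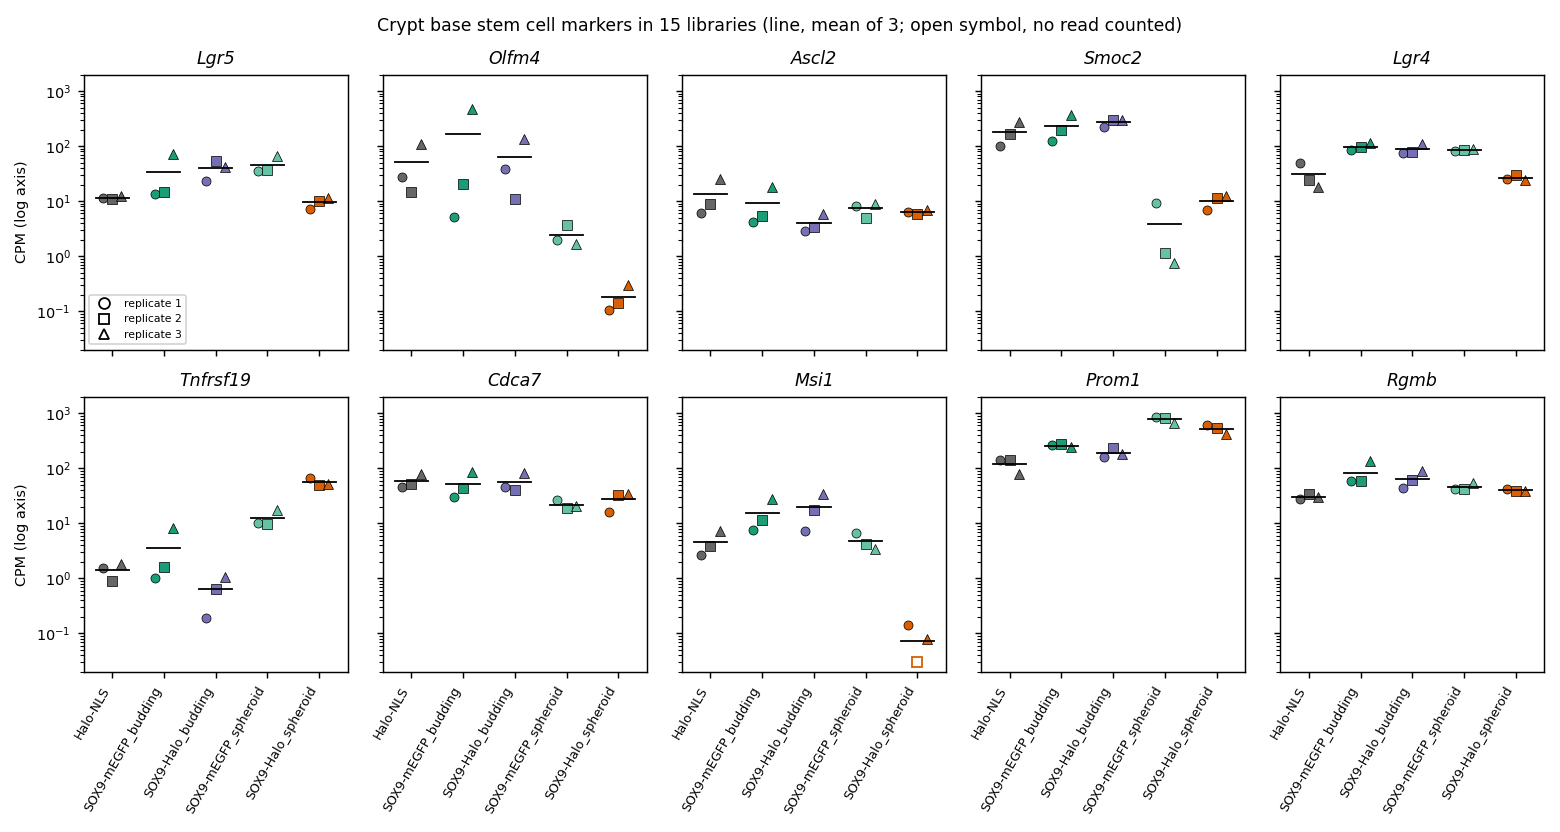
CPM (log axis) of each marker in each of the 15 libraries, with circles, squares and triangles for replicates 1, 2 and 3, black lines for the mean of 3 libraries and an open symbol, drawn at the bottom, for the library with no read. Olfm4 and Smoc2 are lower in all 6 spheroid libraries than in any other library, and Prom1 is higher in all 6.

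Lgr5 and Lgr4 encode the R-spondin receptors of the set. Lgr5 (ENSMUSG00000020140, chromosome 10 from 115286216 to 115423685), the defining receptor of crypt base columnar cells, stood at 11.3, 11.1 and 12.2 CPM in Halo-NLS, at 13.4, 14.8 and 71.9 in SOX9-mEGFP_budding and at 23.4, 54.3 and 41.0 in SOX9-Halo_budding. It stood at 35.9, 36.3 and 65.2 CPM in SOX9-mEGFP_spheroid and at 7.09, 10.2 and 11.5 in SOX9-Halo_spheroid. Every library of both budding conditions and of SOX9-mEGFP_spheroid lay above every Halo-NLS library, and SOX9-Halo_spheroid overlapped with the control. Among these, only the SOX9-mEGFP_spheroid difference was called, with a log2 fold change of 1.99 (SE 0.54, adjusted p = 0.0073). It was not called in any fit that left out 1 of the 6 libraries, where the log2 fold change ran from 1.63 without SOX9-mEGFP_spheroid replicate 3 to 2.13 without its replicate 1, with an adjusted p between 0.01 (rounded, over the threshold) and 0.035. For the budding organoids the log2 fold changes were 1.53 (SE 0.53, adjusted p = 0.064) with mEGFP and 1.78 (SE 0.54, adjusted p = 0.034) with Halo, and for SOX9-Halo_spheroid -0.26 (95% interval -1.39 to 0.86, adjusted p = 0.71). The mEGFP budding value was 0.28 (adjusted p = 0.63) without SOX9-mEGFP_budding replicate 3, the library with 71.9 CPM.

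Lgr4 (ENSMUSG00000050199, chromosome 2 from 109747839 to 109844609) encodes a receptor related to Lgr5 that is expressed beyond stem cells. Its libraries held 49.9, 23.7 and 18.1 CPM in Halo-NLS, 85.1, 94.9 and 114 in SOX9-mEGFP_budding, 76.4, 77.3 and 109 in SOX9-Halo_budding, 82.8, 83.7 and 90.2 in SOX9-mEGFP_spheroid and 25.7, 30.3 and 24.1 in SOX9-Halo_spheroid. The first 3 SOX9 conditions overlapped with each other and lay wholly above the control, whereas SOX9-Halo_spheroid overlapped with it. Lgr4 rose by 1.68 (SE 0.30, adjusted p = 0.0038), 1.52 (SE 0.30, adjusted p = 0.0065) and 1.48 (SE 0.30, adjusted p = 0.0011) on the log2 scale in SOX9-mEGFP_budding, SOX9-Halo_budding and SOX9-mEGFP_spheroid. The SOX9-Halo_spheroid value was -0.20 (95% interval -0.83 to 0.44). In the budding comparisons Lgr4 missed the adjusted p without Halo-NLS replicate 2 (log2 fold changes of 1.53 and 1.37) or Halo-NLS replicate 3 (1.41 and 1.25), and likewise without SOX9-mEGFP_budding replicate 2 (1.72) or 3 (1.56) and without SOX9-Halo_budding replicate 1 (1.61) or 3 (1.32). With only the 6 libraries compared in the fit, the adjusted p of Lgr4 was 0.055 and 0.11 in the budding comparisons and 0.019 in SOX9-mEGFP_spheroid.

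Olfm4 (ENSMUSG00000022026, chromosome 14 from 80221521 to 80260579) encodes a secreted glycoprotein that is abundant in crypt base columnar cells. Its libraries of 1 condition lay far apart, with 27.4, 14.4 and 111 CPM in Halo-NLS, 5.07, 20.6 and 463 in SOX9-mEGFP_budding and 39.0, 10.8 and 137 in SOX9-Halo_budding. In SOX9-mEGFP_spheroid it held 1.96, 3.76 and 1.65 CPM and in SOX9-Halo_spheroid 0.106, 0.141 and 0.295 CPM, which are 3, 5 and 11 reads. All 6 spheroid libraries lay below all 9 others, and the spheroid lines did not overlap with each other. Olfm4 fell by 8.07 on the log2 scale in SOX9-Halo_spheroid (SE 1.74, adjusted p = 0.0014). From the 19 pooled reads, the mean of Halo-NLS was 271-fold higher, with a 95% interval of 174 to 450.3 that covers counting error of these reads and not the spread between libraries. Without Halo-NLS replicate 3, the control library with 111 CPM, the log2 fold change was -6.79 (adjusted p = 0.0053). The SOX9-mEGFP_spheroid difference of -4.38 (SE 1.38) did not pass, with an adjusted p of 0.017, although it did with DESeq2 (adjusted p = 0.0028).

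Smoc2 (ENSMUSG00000023886, chromosome 17 from 14499735 to 14625074) encodes a secreted calcium-binding matrix protein. It held 102, 167 and 280.1 CPM in Halo-NLS, 126, 193 and 374 in SOX9-mEGFP_budding and 222, 298 and 303 in SOX9-Halo_budding. It held 9.44, 1.13 and 0.766 CPM in SOX9-mEGFP_spheroid and 6.95, 11.6 and 12.3 in SOX9-Halo_spheroid. The 3 conditions without spheroids overlapped, and every spheroid library lay below all of them. Smoc2 fell in both spheroid lines, with log2 fold changes of -5.59 in SOX9-mEGFP_spheroid (SE 0.83, adjusted p = 7.7e-05) and -4.15 in SOX9-Halo_spheroid (SE 0.77, adjusted p = 0.00041). Both calls held in every alternative tried, and the mEGFP value was -7.59 (adjusted p = 1.5e-06) without SOX9-mEGFP_spheroid replicate 1, the library with 9.44 CPM.

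Ascl2 and Msi1 encode regulators of gene expression. Ascl2 (ENSMUSG00000009248, chromosome 7 from 142520564 to 142523006), a Wnt-responsive transcription factor of stem cell fate, stood at 6.19, 8.89 and 25.7 CPM in Halo-NLS, at 4.24, 5.38 and 17.8 in SOX9-mEGFP_budding, at 2.92, 3.39 and 5.73 in SOX9-Halo_budding, at 8.28, 4.95 and 9.05 in SOX9-mEGFP_spheroid and at 6.39, 5.72 and 6.87 in SOX9-Halo_spheroid. Neighbouring conditions in the order of means all overlapped, and no comparison called Ascl2. Its lowest condition was SOX9-Halo_budding, wholly below Halo-NLS, with a log2 fold change of -1.76 (SE 0.57, adjusted p = 0.044; 0.0086 with DESeq2). In the spheroids, where Olfm4 and Smoc2 were low, the 95% intervals for Ascl2 were -2.05 to 0.31 with mEGFP (adjusted p = 0.2) and -2.29 to 0.085 with Halo (adjusted p = 0.12).

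Msi1 (ENSMUSG00000054256, chromosome 5 from 115567419 to 115593757), which encodes the RNA-binding protein Musashi-1, was almost without reads in 1 spheroid line only. It stood at 2.69, 3.80 and 7.15 CPM in Halo-NLS, at 7.57, 11.4 and 27.6 in SOX9-mEGFP_budding and at 7.11, 17.8 and 33.9 in SOX9-Halo_budding. It stood at 6.69, 4.24 and 3.46 CPM in SOX9-mEGFP_spheroid, within the range of the control, and at 0.141, 0 and 0.0805 in SOX9-Halo_spheroid, which are 4, 0 and 3 reads. A count of 0 allows an expected count of up to 3 reads at this depth (95% bound on 1 side). Msi1 fell by 5.95 on the log2 scale in SOX9-Halo_spheroid (SE 0.88, adjusted p = 5.3e-05), and the mean of Halo-NLS was 65.6-fold that of the 7 pooled reads (95% counting interval 31.9 to 163). The log2 fold change was -6.65 without SOX9-Halo_spheroid replicate 1 and -5.36 without its replicate 2. The log2 fold changes in the budding organoids were 1.77 (SE 0.61, adjusted p = 0.061) with mEGFP and 2.11 (SE 0.62, adjusted p = 0.03) with Halo, and the latter passed with DESeq2 (adjusted p = 0.004).

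Tnfrsf19 and Prom1 encode membrane proteins and were the markers called higher in both spheroid lines. Tnfrsf19 (ENSMUSG00000060548, chromosome 14 from 61201283 to 61284366), a receptor of the tumour necrosis factor family also called Troy, was the least abundant marker per kilobase in Halo-NLS. It stood at 1.52, 0.889 and 1.84 CPM there, at 1.01, 1.58 and 8.28 in SOX9-mEGFP_budding, at 0.190, 0.638 and 1.08 in SOX9-Halo_budding, at 10.2, 9.67 and 17.6 in SOX9-mEGFP_spheroid and at 67.8, 50.3 and 50.8 in SOX9-Halo_spheroid. The spheroid lines lay above all other conditions and did not overlap with each other. Tnfrsf19 rose by a log2 fold change of 3.14 in SOX9-mEGFP_spheroid (SE 0.69, adjusted p = 0.0018) and by 5.31, or 39.8-fold, in SOX9-Halo_spheroid (SE 0.75, adjusted p = 3.5e-05). Both calls held in every alternative tried.

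Prom1 (ENSMUSG00000029086, chromosome 5 from 44150962 to 44259395), which encodes the pentaspan membrane glycoprotein CD133 and also marks transit-amplifying cells, lay above every control library in all 12 SOX9 libraries. It stood at 139.9, 141 and 79.0 CPM in Halo-NLS, at 260.2, 275 and 242 in SOX9-mEGFP_budding, at 158, 234 and 185 in SOX9-Halo_budding, at 856, 821 and 666 in SOX9-mEGFP_spheroid and at 600.1, 535 and 427 in SOX9-Halo_spheroid. No neighbouring conditions overlapped in the order of means, which ran from SOX9-mEGFP_spheroid over SOX9-Halo_spheroid, SOX9-mEGFP_budding and SOX9-Halo_budding to Halo-NLS. Prom1 rose by 2.70 (SE 0.25, adjusted p = 8.9e-07) and 2.12 (SE 0.24, adjusted p = 4.3e-06) on the log2 scale in the mEGFP and Halo spheroids. Its rise of 1.11 in SOX9-mEGFP_budding (SE 0.24, adjusted p = 0.0098) was not called with RLE size factors (adjusted p = 0.012), with only the 6 libraries compared (0.073), or without any 1 of Halo-NLS replicates 2 (1.25) and 3 (0.88) and SOX9-mEGFP_budding replicates 1 (1.11), 2 (1.08) and 3 (1.16). The SOX9-Halo_budding value was 0.68 (SE 0.23, adjusted p = 0.053).

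Cdca7 passed in 1 comparison with the control. Cdca7 (ENSMUSG00000055612, chromosome 2 from 72306341 to 72317240), a chromatin factor whose expression follows the cell cycle, stood at 46.3, 51.1 and 80.1 CPM in Halo-NLS, at 29.6, 44.2 and 84.4 in SOX9-mEGFP_budding, at 46.1, 39.5 and 80.5 in SOX9-Halo_budding, at 26.0, 19.1 and 20.8 in SOX9-mEGFP_spheroid and at 15.9, 32.4 and 33.5 in SOX9-Halo_spheroid. Both spheroid lines lay wholly below the control. Its fall in SOX9-mEGFP_spheroid passed, with a log2 fold change of -1.43 (SE 0.40, adjusted p = 0.0085), but not with library sizes alone (-1.16, adjusted p = 0.042) or without Halo-NLS replicate 2 (-1.51) or 3 (-1.15) or SOX9-mEGFP_spheroid replicate 1 (-1.57), 2 (-1.35) or 3 (-1.40). In SOX9-Halo_spheroid the value was -1.12 (SE 0.40, adjusted p = 0.03).

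Rgmb (ENSMUSG00000048027, chromosome 17 from 16022655 to 16051513), a co-receptor of bone morphogenetic proteins, stood at 27.1, 33.4 and 30.5 CPM in Halo-NLS, at 57.7, 58.5 and 135 in SOX9-mEGFP_budding, at 43.2, 61.9 and 89.6 in SOX9-Halo_budding, at 42.7, 42.5 and 53.2 in SOX9-mEGFP_spheroid and at 42.8, 38.3 and 38.4 in SOX9-Halo_spheroid. All 12 SOX9 libraries lay above the 3 controls. No comparison called it, and the nearest was SOX9-mEGFP_budding with a log2 fold change of 1.47 (SE 0.32, adjusted p = 0.011), which passed with DESeq2 (adjusted p = 0.00036).

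Counted over markers, 5 did not overlap with Halo-NLS in SOX9-mEGFP_budding (all higher, against 32.5% of genes, 17.2% higher and 15.4% lower), 5 in SOX9-Halo_budding (4 higher and Ascl2 lower, against 29.7%, 14.8% higher and 14.9% lower), 8 in SOX9-mEGFP_spheroid (5 higher and 3 lower, against 56.5%, 29.5% higher and 27% lower) and 7 in SOX9-Halo_spheroid (3 higher and 4 lower, against 54.8%, 26.5% higher and 28.4% lower). Of the markers, 7 overlap another annotated gene (all but Ascl2, Cdca7 and Rgmb), for Olfm4 only on the same strand and for the other 6 with at least 1 gene on the opposite strand. Counting ignored strand, and reads on exons of both genes were left out as ambiguous.

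**Figure D2:**
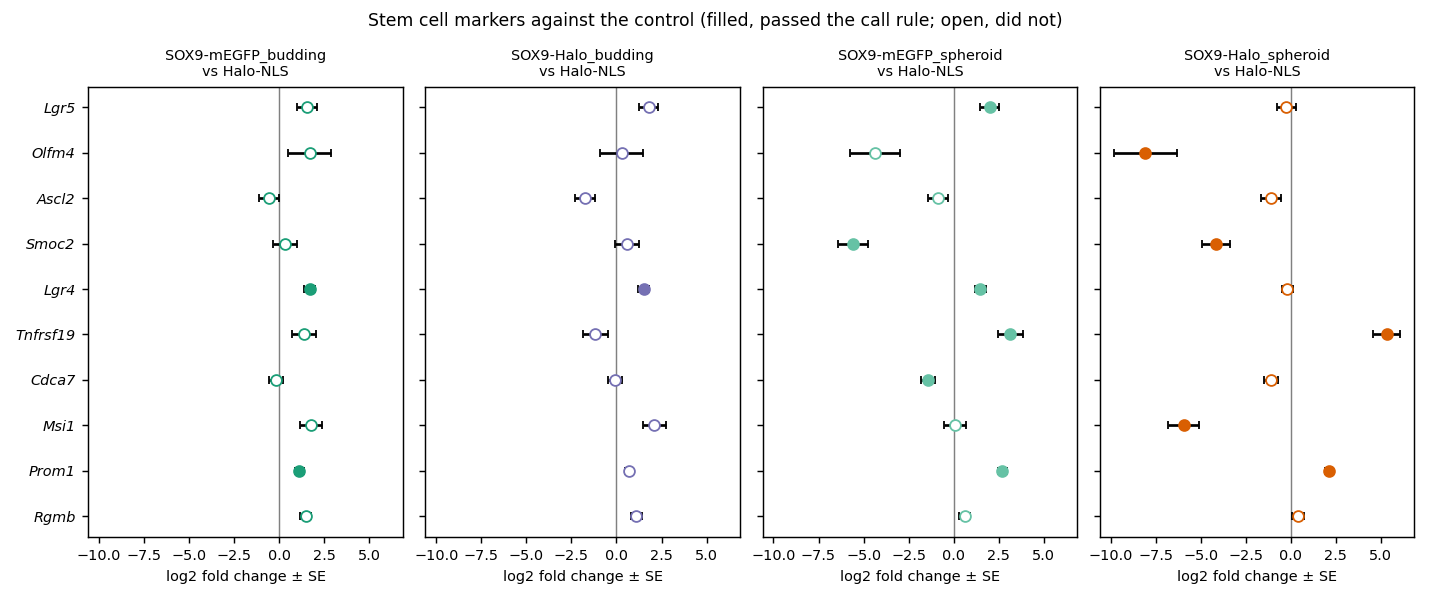
Log2 fold change against Halo-NLS (x axis) with its standard error for the 10 markers in each SOX9 condition, filled where the gene passed the call rule and open where it did not. Lgr4 is filled in 3 panels and Prom1 in 3, Tnfrsf19 and Smoc2 in both spheroid panels on opposite sides of 0, and Ascl2 and Rgmb in no panel.

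The change from budding to spheroid was compared within each line, which shares no library with the other. In the SOX9-mEGFP line 3 markers were called, where 16.4% of genes were called (8.55% higher and 7.88% lower). Prom1 rose by 1.59 (SE 0.24, adjusted p = 0.00013) on the log2 scale. Smoc2 and Olfm4 fell, with values of -5.93 (SE 0.84, adjusted p = 7.9e-05) and -6.05 (SE 1.48, adjusted p = 0.0059). Smoc2 stood at -7.94 without SOX9-mEGFP_spheroid replicate 1. The Olfm4 value rests on SOX9-mEGFP_budding replicate 3, the library with 463 CPM, and was -2.43 without it (adjusted p = 0.068). In a fit of just these 6 libraries Olfm4 had an adjusted p of 0.017. Leaving out SOX9-mEGFP_spheroid replicate 1, 2 or 3 also ended the call, at -5.92, -6.52 and -5.85. Without SOX9-mEGFP_budding replicate 3, Lgr5 and Tnfrsf19 were called as higher in the spheroids (1.65, adjusted p = 0.004, and 3.21, adjusted p = 0.00038). With it they stood at 0.46 (SE 0.52) and 1.77 (SE 0.64), neither of which passed.

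In the SOX9-Halo line 7 markers were called from budding to spheroid, where 25.3% of genes were called (10.5% higher and 14.7% lower). Tnfrsf19 rose by 6.48 (SE 0.80, adjusted p = 9.9e-06) and Prom1 by 1.44 (SE 0.24, adjusted p = 0.00016). The other 5 fell, with values of -8.36 for Olfm4 (SE 1.76, adjusted p = 0.0013), -8.05 for Msi1 (SE 0.90, adjusted p = 3.8e-06), -4.74 for Smoc2 (SE 0.79, adjusted p = 0.00018), -2.04 for Lgr5 (SE 0.54, adjusted p = 0.0068) and -1.71 for Lgr4 (SE 0.30, adjusted p = 0.00031). Ascl2 alone overlapped between the budding and spheroid libraries of this line, with a value of 0.66 (95% interval -0.53 to 1.85), while 9 markers did not overlap, against 52.8% of genes (24.6% higher and 28.2% lower). In the SOX9-mEGFP line 7 did not overlap, against 46% (23.9% higher and 22.1% lower). Without SOX9-Halo_budding replicate 3 the values were -7.02 for Olfm4, -7.37 for Msi1 and 7.13 for Tnfrsf19. Without SOX9-Halo_spheroid replicate 3 Olfm4 stood at -8.99, and without its replicate 1 Msi1 stood at -8.77. The fall of Lgr5 was lost without SOX9-Halo_budding replicate 2 (-1.74) or 3 (-1.99), without SOX9-Halo_spheroid replicate 1 (-1.86), 2 (-2.13) or 3 (-2.25), and with library sizes alone (adjusted p = 0.011).

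The test of the difference between both changes, SOX9-Halo minus SOX9-mEGFP, called 2 markers, where 7.39% of genes were called (1.81% higher and 5.58% lower). Tnfrsf19 rose more in the SOX9-Halo line by 4.72 on the log2 scale (SE 0.95, adjusted p = 0.0033), and Msi1 fell more there, with a difference of -6.36 (SE 1.06, adjusted p = 0.00082). Tnfrsf19 was at 4.55 without SOX9-mEGFP_spheroid replicate 1 and at 4.53 without its replicate 2, where it missed the adjusted p (0.012 and 0.013), and at 3.31 and 5.34 without replicate 3 of SOX9-mEGFP_budding and of SOX9-Halo_budding. Msi1 stood at -6.98 and -5.70 without these same libraries and at -7.08 without SOX9-Halo_spheroid replicate 1. Lgr5 and Lgr4 stood at -2.50 (SE 0.75, adjusted p = 0.039) and -1.51 (SE 0.42, adjusted p = 0.027). Lgr5 passed without SOX9-mEGFP_budding replicate 3 (-3.66, adjusted p = 0.0002), and Smoc2, at 1.19 (SE 0.97) with all libraries, passed without SOX9-mEGFP_spheroid replicate 1 (3.14, adjusted p = 0.0064). For Prom1 the difference was -0.16 (95% interval -0.86 to 0.55).

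**Figure D3:**
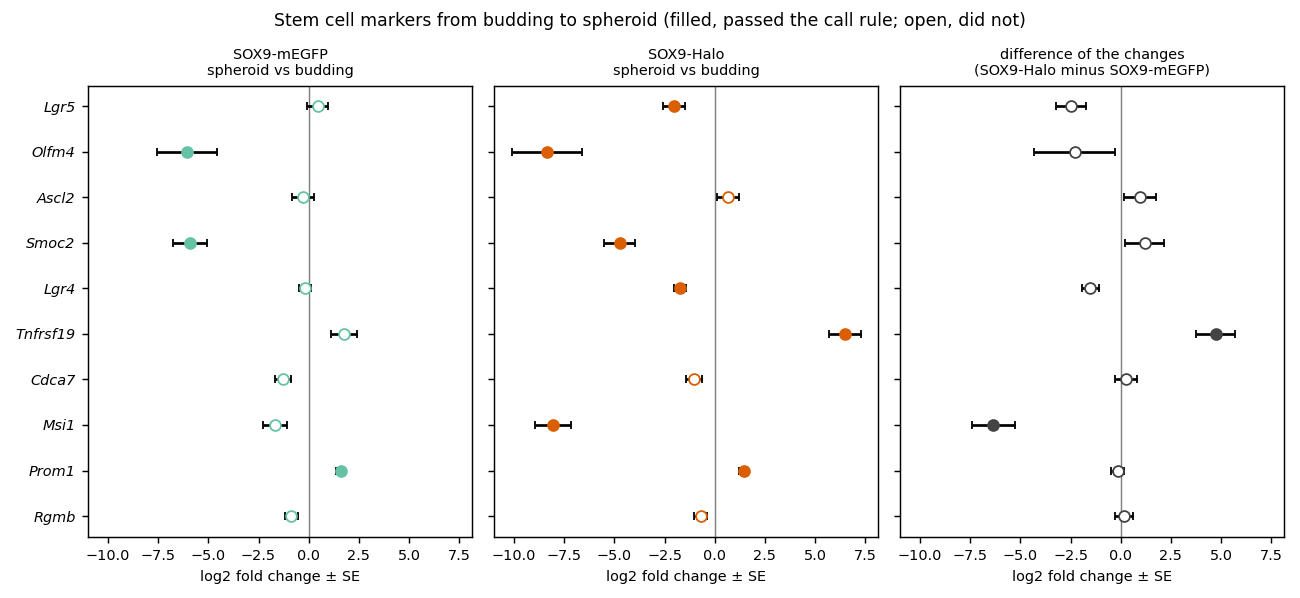
Log2 fold change from budding to spheroid (x axis) with its standard error in the SOX9-mEGFP line and the SOX9-Halo line, and the difference of both changes, filled where the call rule was passed. Olfm4 and Smoc2 lie far below 0 in both lines, Prom1 lies at 1.59 and 1.44, and Tnfrsf19 and Msi1 are the filled points of the third panel.

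Directly between the lines at 1 shape, fewer genes separated the budding organoids than the spheroids. In the budding organoids, with edgeR, 0 markers were called (2 at an unadjusted p under 0.05, 1 with DESeq2), where 0.456% of genes were called (0.29% higher and 0.165% lower). Prom1 alone had no overlap, against 12% of genes (5.81% higher and 6.18% lower). The marker called with DESeq2 was Tnfrsf19, lower in the SOX9-Halo line at -2.55 (SE 0.70, adjusted p = 0.13 with edgeR and 0.0099 with DESeq2). Between the spheroids edgeR called 3 markers, all lower in the SOX9-Halo line, where 13.2% of genes were called (3.59% higher and 9.58% lower). DESeq2 called 3 lower and 1 higher, where 11.9% of genes were called. Tnfrsf19 was higher at 2.17 (SE 0.64, edgeR adjusted p = 0.021), which did not pass but did in 4 of 12 alternatives. Lgr5 was lower by a log2 fold change of -2.25 (SE 0.55, adjusted p = 0.0067), Lgr4 by -1.68 (SE 0.30, adjusted p = 0.00076) and Msi1 by -6.02 (SE 0.87, adjusted p = 0.00011). Msi1 stood at -6.74 and -5.43 without SOX9-Halo_spheroid replicates 1 and 2. For Lgr5 the call was lost with library sizes alone (adjusted p = 0.012) and in each fit that left out 1 of the 6 libraries, from -1.91 without SOX9-mEGFP_spheroid replicate 3 to -2.42 without SOX9-Halo_spheroid replicate 3. Smoc2 stood at 1.44 (SE 0.71, adjusted p = 0.16) and was called as higher, at 3.42 (adjusted p = 0.0005), without SOX9-mEGFP_spheroid replicate 1, in which it had 9.44 CPM against 1.13 and 0.766 in the other two. The spheroid lines did not overlap for 6 markers (in SOX9-Halo_spheroid 5 were lower and Tnfrsf19 was higher), against 48.6% of genes (20.6% higher and 28% lower).

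Levels of different genes were set side by side per kilobase of exon, in CPM per kilobase averaged over 3 libraries. The length is that of all annotated exons of a gene together and not of the transcripts expressed here. The order of genes therefore depends in part on the annotation. In Halo-NLS, Smoc2 (19.7), Olfm4 (17.1), Prom1 (15.5) and Cdca7 (13.8) had the highest means, but their libraries overlapped. Prom1 led in replicates 1 and 2 (18.0 and 18.1) and Olfm4 in replicate 3 (37.2, against 9.19 and 4.84 in the other two). The means went on with Ascl2 (8.33), Lgr4 (4.11), Rgmb (2.41), Lgr5 (1.12), Msi1 (0.753) and Tnfrsf19 (0.190). In SOX9-mEGFP_budding and SOX9-Halo_budding Olfm4 (54.6 and 20.9), Prom1 (33.4 and 24.8) and Smoc2 (24.8 and 29.5) had the highest means. There the means of Olfm4 rest on replicate 3, with 1.70, 6.91 and 155 in the mEGFP libraries and 13.1, 3.62 and 45.9 in the Halo libraries. In SOX9-mEGFP_spheroid Prom1 (100.7) stood far above Lgr4 (11.5), the next, while Olfm4 (0.822) and Smoc2 (0.406) were near the bottom. In SOX9-Halo_spheroid Prom1 (67.1) was followed by Tnfrsf19 (7.55), Cdca7 (6.38) and Ascl2 (3.88), and Olfm4 (0.0605) and Msi1 (0.0122) came last.

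Within the control and budding conditions, the markers were not spread evenly over libraries. SOX9-mEGFP_budding replicate 3 held the highest level of its condition for 9 of the 10 markers, SOX9-Halo_budding replicate 3 for 8 and Halo-NLS replicate 3 for 7. Prom1 was an exception in all 3 conditions, with its lowest level in replicate 3 of Halo-NLS and SOX9-mEGFP_budding. In each of these conditions the same library also held the highest sum over 12 proliferation genes, 1577 CPM against 944.3 and 1040.1 in Halo-NLS, 1872 against 813.6 and 1052 in SOX9-mEGFP_budding and 1859 against 878.7 and 1184 in SOX9-Halo_budding. It held the lowest sum over the 6 enterocyte markers, 5009, 1259 and 3381 CPM. The part of this shift in the differences between conditions was not tested. At the low end, replicate 1 was lowest for 9 markers in SOX9-mEGFP_budding, 8 in SOX9-Halo_budding and 5 in Halo-NLS. SOX9-Halo_budding replicate 1 was also the library with Sox9 at 39.8 CPM, against 314 and 204 in the other replicates of that condition. Any link between the marker and Sox9 levels was not tested. Between spheroid libraries no single library was highest for more than 5 markers.

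**Figure D4:**
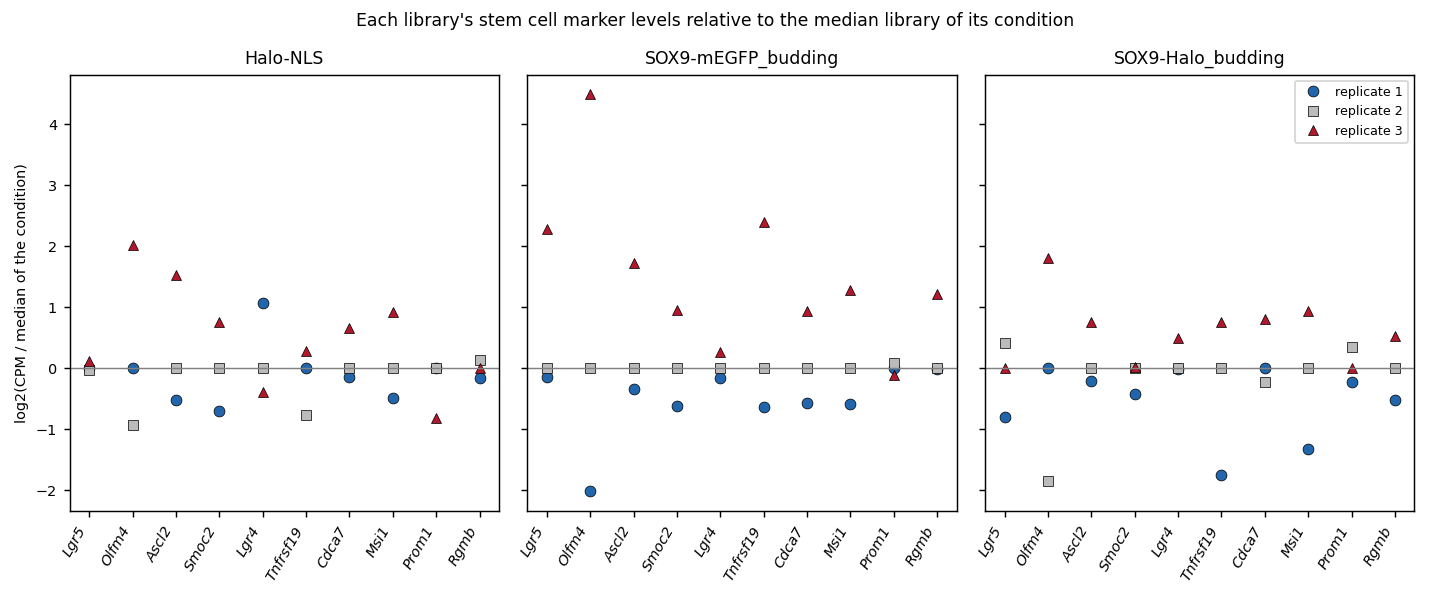
Log2 ratio of each library's CPM to the median library of its condition (y axis) for the 10 markers in Halo-NLS, SOX9-mEGFP_budding and SOX9-Halo_budding, with replicates 1, 2 and 3 as circles, squares and triangles. The triangles of SOX9-mEGFP_budding lie above the other symbols for 9 markers, farthest for Olfm4.

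Over the 15 libraries, the genes whose log2 CPM followed Lgr5 most closely, among tested genes that averaged 100 or more normalized reads, were Aldh7a1 (Pearson r 0.852), Lrrc8b (0.849), Tspyl2 (0.842) and Clca3a1 (0.840). For Olfm4 they were Clca3b (0.952), Sema7a (0.941), Rbmx (0.928) and Slc16a12 (0.921). These values are descriptions, since the points share their conditions and their library sizes. Clca3b averaged 77.8, 208 and 123 CPM in the control and the mEGFP and Halo budding organoids, and 3.34 and 0.277 CPM in the mEGFP and Halo spheroids.

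Other genes of the R-spondin and LGR pathway were examined as a list of 11, of which 7 were tested. Genes of this and the other lists that are named beyond the 4 most abundant were chosen after their values were seen. The R-spondin ligand genes Rspo1 and Rspo2 had 0 reads in all libraries, and Rspo4, at 1.98 ± 0.702 CPM (SD, n = 3) in Halo-NLS, was called lower in both spheroid lines. Against Halo-NLS 1 of the 7 was called higher in SOX9-mEGFP_budding (Fzd7) and 1 in SOX9-Halo_budding (Fzd5), with none lower. In SOX9-mEGFP_spheroid 2 were higher and 1 lower, and in SOX9-Halo_spheroid 4 were higher and 2 lower. Of all tested genes, 1.99% and 2.49% were called higher and 0.763% and 1.26% lower in the mEGFP and Halo budding organoids. In the mEGFP and Halo spheroids 15.3% and 13.6% were called higher and 12.1% and 15.3% lower. The Wnt co-receptor gene Lrp5 rose by 1.15 (SE 0.29, adjusted p = 0.0044) and Rnf43, which encodes a ubiquitin ligase that clears Wnt receptors, by 1.14 (SE 0.26, adjusted p = 0.002) in SOX9-Halo_spheroid. There the Wnt receptor gene Fzd5 fell by 1.02 (SE 0.23, adjusted p = 0.0022). Lrp6, another Wnt co-receptor gene, rose by 2.22 in SOX9-mEGFP_spheroid (SE 0.44, adjusted p = 0.00093). The list's median log2 fold changes were 0.79, 0.76, 0.37 and 1.06 in the order of conditions above, against -0.01 to 0.03 for all tested genes.

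Of 12 general Wnt target genes, 11 were tested. Cd44, which encodes a hyaluronan receptor, was called higher in all 4 comparisons with Halo-NLS, by 2.64 (SE 0.48), 2.59 (SE 0.48), 5.89 (SE 0.55) and 4.37 (SE 0.52) on the log2 scale, and was the only target called in the budding conditions. In SOX9-mEGFP_spheroid 2 were higher (Cd44, Ccnd1) and 1 lower (Apcdd1), and in SOX9-Halo_spheroid 4 were higher (Nkd1, Notum, Cd44, Ccnd1) and 2 lower (Sp5, Apcdd1). Of all tested genes, 2.76%, 3.75%, 27.5% and 28.9% were called in the 4 comparisons, in the order of conditions above. The cyclin gene Ccnd1 rose by 2.17 (SE 0.34) and 3.03 (SE 0.36) in the mEGFP and Halo spheroids. Nkd1 and Notum, which encode feedback inhibitors of Wnt signalling, stood at 129 ± 40.7 and 13.5 ± 2.36 CPM (SD, n = 3) in SOX9-Halo_spheroid and at 1.83 ± 0.705 and 1.72 ± 0.719 CPM in Halo-NLS. Their change from budding to spheroid was larger in the SOX9-Halo line by 6.03 (SE 1.04, adjusted p = 0.001) and 5.64 (SE 0.65, adjusted p = 3.2e-05). The other abundant targets, the receptor gene Ephb2 and Myc, were not called in any comparison with the control. The list's medians were 0.11, -0.52, 0.15 and 1.06.

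Of 12 further genes described in crypt base columnar cells, 10 were tested, and 2 were higher and 1 lower in each budding condition (Slc12a2 and Gkn3 higher, Igfbp4 lower). The chloride cotransporter gene Slc12a2 rose by 2.96 (SE 0.61) and 3.42 (SE 0.62) there, and by 2.54 (SE 0.60) in SOX9-mEGFP_spheroid, where 3 were higher and 2 lower. In SOX9-Halo_spheroid none was called higher (4 in either direction at an unadjusted p under 0.05, and 2 called higher with DESeq2) and Aqp4 was lower. The shares called with edgeR over all tested genes were 2.76%, 3.75%, 27.5% and 28.9% in the order above. Phgdh, an enzyme of serine synthesis, and the potassium channel gene Kcnq1 were not called against the control. Soat1, an enzyme of cholesterol esterification, rose in SOX9-mEGFP_spheroid by 1.28 (SE 0.21, adjusted p = 0.00018). The medians were 0.77, 0.50, -0.02 and 0.22.

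The 4 genes ascribed to reserve stem cells, Lrig1, Hopx, Bmi1 and Tert, were all tested and none was called higher against the control with edgeR or DESeq2 (1, 1, 2 and 3 in either direction at an unadjusted p under 0.05 in the order above). The telomerase gene Tert fell in SOX9-mEGFP_budding (-2.00, SE 0.31), SOX9-mEGFP_spheroid (-2.99, SE 0.32) and SOX9-Halo_spheroid (-3.32, SE 0.33), and the homeodomain gene Hopx fell in SOX9-Halo_spheroid (-1.76, SE 0.31). Lrig1, an inhibitor of growth factor receptors, and the chromatin gene Bmi1 were not called. Of 12 proliferation genes, Mcm4, higher in SOX9-Halo_spheroid, was the only call against Halo-NLS in 4 comparisons. At an unadjusted p under 0.05 there were 1, 3, 4 and 2 in the order above, and DESeq2 called 1, in SOX9-Halo_spheroid. Of all tested genes, edgeR called 2.76%, 3.75%, 27.5% and 28.9% in the same order. Top2a, Pcna, Mcm5 and Mcm7, the most abundant of them, were not called.

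Genes of the fetal-like and regenerating epithelium were examined as a list of 8. All 8 were tested and called higher in each spheroid line against Halo-NLS, with medians of 7.74 and 7.05. Of all tested genes, 15.3% and 13.6% were called higher in the mEGFP and Halo spheroids. The study had already reported Ly6a, Clu and Anxa1 from this list in these spheroids, so the list is not independent of these data. None was called in SOX9-mEGFP_budding or SOX9-Halo_budding with edgeR (4 and 4 at an unadjusted p under 0.05, and 2 and 1 called with DESeq2). Clu, the gene of the secreted chaperone clusterin, averaged 8.77 ± 6.06 CPM (SD, n = 3) in Halo-NLS, 4451 ± 548 in SOX9-mEGFP_spheroid and 2162 ± 320.1 in SOX9-Halo_spheroid. The annexin genes Anxa1 and Anxa3 and the surface protein gene Msln rose by 7.17 (SE 0.67), 6.00 (SE 0.40) and 5.51 (SE 0.72) in SOX9-mEGFP_spheroid and by 8.31 (SE 0.70), 5.92 (SE 0.40) and 6.94 (SE 0.77) in SOX9-Halo_spheroid.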

How the data were processed

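Poly-A RNA of 15 libraries, 3 for each of 5 conditions, was measured. According to the labels and the study's methods, the authors trimmed reads with cutadapt 4.5, aligned them to mm39 with STAR, kept unique alignments and deposited the counts per gene from HTSeq 2.0.2 (union mode, no strand). Tables of the authors' own fold changes and p-values, and their normalized table, were not used. In the count files, 9.65% to 13.6% of reads were ambiguous between genes and 1.83% to 6.09% had no feature, and both stayed out of library sizes.

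The deposited counts were tested with edgeR 4.0.16 in R 4.3.3 (quasi-likelihood test, TMM scaling, filterByExpr, all 15 libraries in 1 fit of the 5 conditions, Benjamini-Hochberg adjustment over 17560 genes). CPM are counts scaled to a common TMM-adjusted library size, the standard error is the log2 fold change over the square root of F, and 95% intervals of fold changes use that error and the t distribution with the test's own degrees of freedom. Alternatives were DESeq2 1.42.0, RLE factors, library sizes alone, no filter, only the libraries compared, a replicate block and each library left out. Intervals for low counts are exact Poisson. Figures were drawn with matplotlib 3.10.9. The scripts were checked on simulated counts.

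The 10 markers and all gene lists were chosen with earlier results of these data known. All markers are named, and of each other list except those of cell types the 4 genes with the highest mean count. Further genes of the lists were named after their values were seen. The study's methods call the libraries of a condition biological triplicates, collected within a few passages of a stated one. No label says that they came from separate animals. The p-values therefore measure the spread between these samples of a line, which is not shown to be a spread between animals. Same-numbered libraries deviated together (r over 0.1 in every pair) only between the budding and spheroid conditions of the SOX9-Halo line, at 0.234 to 0.403 over 11054 genes. Single pairs between other conditions reached higher values, and 17 of all 30 pairs exceeded 0.1. Replicate 2 of Halo-NLS and SOX9-Halo_budding stood at 0.817 and replicate 3 of the budding conditions at 0.740. The lowest pair, replicate 2 of Halo-NLS and SOX9-mEGFP_spheroid, stood at -0.320. In every condition replicate 2 also had the fewest genes with a read, 24214 to 26390 against 26405 to 40375 in the other libraries. The highest number was that of Halo-NLS replicate 3. Whether same-numbered libraries were collected or prepared together is not stated in the labels. Promoter sequences are printed for 3 markers, and those of the other 7 are not reported here.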

Additional observations from a re-analysis of the deposited data

Results flagged for a closer look

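Tnfrsf19 and Msi1 differed between the lines in their change from budding to spheroid, by the test of that difference. For Tnfrsf19 the difference, SOX9-Halo minus SOX9-mEGFP, was 4.72 on the log2 scale (SE 0.95, edgeR adjusted p = 0.0033), from 6.48 in the SOX9-Halo line and 1.77 in the SOX9-mEGFP line, and it was 3.31 without SOX9-mEGFP_budding replicate 3, in which Tnfrsf19 had 8.28 CPM. For Msi1 it was -6.36 (SE 1.06, edgeR adjusted p = 0.00082), from -8.05 and -1.69, and it rests on 7 reads in the SOX9-Halo_spheroid libraries. The lines differ in their tag, in the H2B transgene of the spheroids with its selection drug, and in Xist. In the study's order by morphology and time in culture, the SOX9-mEGFP samples of each shape came before the SOX9-Halo samples. These differences cannot be told apart here.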

How the results depend on the processing

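Counts of called markers changed by over 1.5 times in these fits. With RLE factors SOX9-mEGFP_budding against Halo-NLS had 1, where 2.74% of genes were called. With no filter on low counts there were 7 in SOX9-mEGFP_budding and 5 in SOX9-Halo_budding against Halo-NLS. There were 6 from budding to spheroid in the SOX9-mEGFP line, 2 between the budding lines, 6 between the spheroid lines and 5 for the difference of changes. In the same order, 3.76%, 4.45%, 6.31%, 0.529%, 5.61% and 3.55% of all genes were called. Over all genes tested without the filter, 1730 higher and 261 lower were called in SOX9-mEGFP_budding and 1933 and 424 in SOX9-Halo_budding, against 350 and 134 and 438 and 221 with it. With DESeq2 there were 5 in SOX9-Halo_budding against Halo-NLS (9.42% of genes), 1 between the budding lines (0.928%) and 4 for the difference of changes (8.11%). With only the libraries compared there were 0 and 0 in the mEGFP and Halo budding organoids against Halo-NLS. Only 0.685% and 0.0328% of all genes were called there, so these counts say little about the markers. Between the spheroid lines there were 5, where 18.9% of genes were called. The cause was not tested.

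Leaving out 1 library gave these ranges of called markers, with the share of all genes called in brackets. Against Halo-NLS there were 0 to 2 in SOX9-mEGFP_budding (1.18% to 11.9%) and 0 to 1 in SOX9-Halo_budding (1.1% to 12.9%). There were 4 to 5 in SOX9-mEGFP_spheroid (20.7% to 31.7%) and 5 in every fit of SOX9-Halo_spheroid (24% to 32%). From budding to spheroid there were 2 to 4 in the mEGFP line (12.2% to 15.6%) and 6 to 7 in the Halo line (21% to 23.4%). The budding lines gave 0 (0.251% to 0.554%), the spheroid lines 2 to 3 (9.34% to 11.6%) and the difference of changes 1 to 3 (5.02% to 6.88%). The replicate block gave 3, 1, 6, 6, 4, 7, 0, 4 and 3 in the same order. Of all genes it called 3.64%, 4.99%, 29.3%, 30.2%, 17.7%, 26.4%, 0.552%, 14.5% and 8.5%. Within the SOX9-Halo line alone, an alternative chosen after seeing the data, it gave 7, where 27.7% of genes were called.

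With library sizes alone, which moved the median of all genes to between 0.27 and 0.31 against Halo-NLS, signs turned for Cdca7 in SOX9-mEGFP_budding (0.12) and SOX9-Halo_budding (0.24) and for Lgr5 (0.034) and Lgr4 (0.081) in SOX9-Halo_spheroid. Signs of values that were not called also turned when 1 library was left out. Against Halo-NLS these were, in SOX9-mEGFP_budding, Cdca7 (-0.69 to 0.13), Ascl2 (-1.50 to 0.28), Olfm4 (-2.00 to 2.96), Smoc2 (-0.21 to 0.78) and Tnfrsf19 (-0.12 to 1.81), in SOX9-Halo_budding Cdca7 (-0.44 to 0.18) and Olfm4 (-0.96 to 1.57), in SOX9-mEGFP_spheroid Msi1 (-0.24 to 0.56) and in SOX9-Halo_spheroid Lgr4 (-0.46 to 0.36). Between the budding lines they were Lgr5 (-0.13 to 1.47), Smoc2 (-0.047 to 0.76), Cdca7 (-0.30 to 0.55), Olfm4 (-2.69 to 2.23), Rgmb (-0.68 to 0.13) and Msi1 (-0.32 to 1.01). From budding to spheroid in the mEGFP line it was Ascl2 (-0.64 to 0.58), and for the difference of changes Cdca7 (-0.18 to 0.62), Rgmb (-0.28 to 0.47) and Prom1 (-0.28 to 0.013). Over all single-gene values, 523 of the fits without 1 library kept the direction and the side of the threshold, 41 lost the call, 5 gained it and 31 turned sign. Depth limits Olfm4 and Msi1 in SOX9-Halo_spheroid, with 19 and 7 reads in all.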

Other observations

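Markers of mature cell types also differed in the spheroids. Against Halo-NLS, all 6 enterocyte and all 6 enteroendocrine markers were called lower in both spheroid lines. Of all tested genes, 12.1% were called lower and 15.3% higher in SOX9-mEGFP_spheroid, and 15.3% lower and 13.6% higher in SOX9-Halo_spheroid. The same shares apply to the cell types that follow. Of 6 tested Paneth cell markers, 5 were lower and Mmp7, the gene of the matrix metalloproteinase matrilysin, was higher in SOX9-mEGFP_spheroid, whereas all 6 were lower in SOX9-Halo_spheroid. Of the 6 goblet cell markers, all were called lower in SOX9-Halo_spheroid and none in SOX9-mEGFP_spheroid with edgeR (1 at an unadjusted p under 0.05, 0 with DESeq2). Of 4 tested tuft cell markers, Pou2f3, a transcription factor gene of that lineage, was lower in both spheroid lines.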
